A study of Oryza sativa with 12 samples.

Results

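The 200 probe sets described here had the strongest loss of signal under drought on 1 set of arrays of rice leaves. The leaves were the youngest to have fully expanded on plants 2.5 months old (cultivar Dongjin), and their RNA was hybridised to 12 Affymetrix arrays of the rice genome, with 3 arrays in each of 4 groups: *osnadk1* under drought, WT under drought, *osnadk1* under normal growth and WT under normal growth. The mutant *osnadk1* is a homozygous T-DNA insertion line of *OsNADK1*, whose product is a kinase that makes NADP from NAD, and WT is its parent, so all mutant arrays come from 1 insertion line. Plants of both genotypes shared pots. Drought leaves were taken 15 days after watering stopped, at a soil moisture of 8.5%, and normal leaves at day 0, at 47.3%, so drought against normal also holds any change over those days. The study asked how leaf transcripts of the mutant and of WT differ with and without drought. Prefixes in the array descriptions split the arrays into sets called job A and job B below, an inference about how they were run. In each condition job A held *osnadk1* replicates 1 and 2 and WT replicate 1, and job B held *osnadk1* replicate 3 and WT replicates 2 and 3. The labels mark all WT arrays as a re-analysis. The members were chosen by their job B signals. A member had to lie lower on every job B drought array than on every job B normal array, with a mean log2 signal of at least 8 on the normal arrays, and 2491 of 57194 probe sets did so once genes named TIFY, EXPA, EXPB or PIP were left out. The 200 with the lowest mean difference are the members, of which 131 map to 1 gene each and 121 genes in all.

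Leaves under water deficit close their stomata and draw less water, and with it fewer mineral ions, from the root. Copper, zinc, iron, potassium and ammonium cross membranes through dedicated carriers (COPT, ZIP, YSL, HAK and AMT families), and the genes of many such carriers are known to follow the supply of their ion. Many leaf genes also follow the time of day. CCA1/LHY is a morning gene of the plant circadian clock, and PRR1 and PCL1 (the rice relative of LUX) are evening genes.

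In job B, where the values chose the members and no test applies, drought minus normal ran from -6.94 to -1.0022 log2 units, with a median of -1.35, and was -2 or lower for 28 members. The 3 members just inside the limit had differences of -1.0033, -1.0028 and -1.0022. The next 3 probe sets outside it had -1.0017, -0.9998 and -0.9985, so the limit falls in a dense run of values. The choice depended on which replicates entered it. Without the *osnadk1* replicate 3 arrays of both conditions the same rule kept 83 of the 200 members, and without the WT replicate 2 arrays 131. The limit of 8 lies above the array medians of 5.08 to 5.43, so the rule by itself favours members above the median. Of the members, 186 reached their own array's median on all 12 arrays. All 200 passed the filter for testing (its own array's median reached on at least 3 of 12 arrays). All 200 also passed it without the job B normal arrays. Over the 200 members the median level was 8.26 on the job B drought arrays and 9.66 on the job B normal arrays, and 9.16 on the job A drought arrays and 9.14 on the job A normal arrays.

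Of the 5 lowest members in job B, with differences of -6.94, -6.84, -6.37, -5.21 and -5.07, only the one of rank 4 (LOC4336657) maps to a gene in the reference, and the others are called by their rank. Here and below, job B values run in the order *osnadk1* 3, WT 2, WT 3, and job A values in the order *osnadk1* 1, *osnadk1* 2, WT 1. In job B the log2 signal of LOC4336657 was 8.59, 9.99 and 8.12 under drought, against 14.24, 13.89 and 14.20 under normal growth. In job A it was 13.28, 14.02 and 8.87 under drought, against 14.54, 13.41 and 11.68 under normal growth. Droughted *osnadk1* leaves of job A thus kept a level near that of normal leaves, while the WT drought array lay with the drought arrays of job B. The member of rank 2 was also low on the WT drought array of job A, with 8.78, 7.92 and 0.91 under drought, against 12.05, 5.25 and 0.03 under normal growth. Its job B drought values of 0.00, 0.72 and 2.93 lay below their arrays' medians. The same held for all 3 job B drought values of ranks 1 and 3 and for 2 of the 3 of rank 5, so the differences and the order of these 4 members have no firm size. The members of ranks 2, 3 and 5 had the same order of job A arrays under normal growth, with 12.05, 12.01 and 12.96 on *osnadk1* replicate 1, against 0.03, 1.48 and 4.16 on WT replicate 1. In the array's naming an ending in _s_at or _x_at marks probes that match more than 1 transcript, which holds for 38 members, and their signals may come from related genes. None of the 5 passed the test in job A (limma, adjusted p from 0.179 to 0.974).

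Over the whole series the arrays were alike in overall signal (array medians of 5.08 to 5.43, correlations between arrays of 0.893 to 0.934). *OsNADK1* signal was 4.39 to 5.65 in droughted *osnadk1*, against 9.43 to 9.53 in droughted WT, and 3.96 to 5.16 in normal *osnadk1*, against 9.55 to 10.27 in normal WT. Of 8 leaf marker probe sets (Rubisco small subunit and light-harvesting proteins), 6 lay above their own array's median on all 12 arrays. Their summed level was 16.88 to 17.12 log2 units on the job B drought arrays, against 16.67 to 16.94 on the job B normal arrays, and 16.63 to 16.97 on the job A drought arrays, against 17.11 to 17.36 on the job A normal arrays. The 5 root marker probe sets summed to 9.75 to 9.96 on the job B drought arrays, against 8.62 to 9.27 on the job B normal arrays, and to 9.32 to 9.60 against 9.24 to 9.54 in job A. The 4 probe sets for dividing cells summed to 5.91 to 6.67 on the job B drought arrays, against 6.32 to 6.61 on the job B normal arrays, with none above its array's median on all arrays, and to 6.50 to 6.94 against 5.46 to 6.35 in job A. The 3 probe sets for epidermis and cuticle summed to 14.86 to 15.09 on the job B drought arrays, against 13.80 to 14.42 on the job B normal arrays, and to 14.57 to 14.82 against 14.37 to 14.75 in job A. None of these markers is a member, and their part in the results below was not tested. In whole leaves, fewer cells of a type and less RNA per cell cannot be told apart.

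The job A arrays did not choose the members, so drought against normal was tested there, with 3 arrays a condition and genotype as a covariate. The members did not move as a block. By limma 54 members fell and 59 rose under drought in job A at an adjusted p under 0.05, and 87 did not pass. Of all 32064 probe sets tested, 8.28% were called lower and 12.8% higher, against 27% and 29.5% of the members. In 48 members every job A drought array lay below every job A normal array, and in 57 above, where the background was 14.1% and 23.3%. The median member difference was 0.07 log2 units, against 0.11 for all probe sets tested, while the middle of the distribution was wider, from -1.10 to 1.11 between percentiles 25 and 75, against -0.28 to 0.53. Job A differences of 2 log2 units or more in either direction were seen in 23% of members and in 5.83% of all probe sets tested. Which plants and pots stood behind each replicate is not given, so a p-value here speaks only of spread among the arrays.

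**Figure D1:**
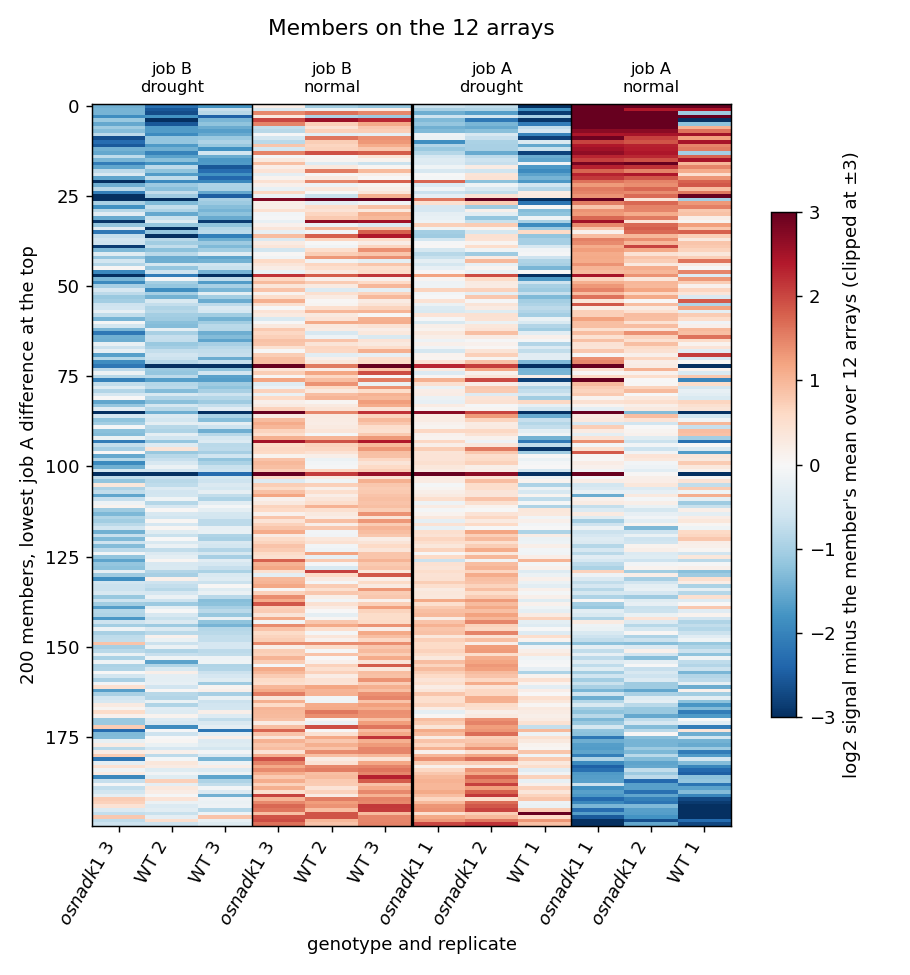
Log2 signal of each of the 200 members (rows) on the 12 arrays (columns), minus that member's mean over the arrays, with red for higher and blue for lower. Rows run from the lowest job A difference (-5.94, top) to the highest (4.16, bottom). The job B columns look alike in all rows because the rule set them, while the job A normal arrays turn from red at the top to blue at the bottom.

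**Figure D2:**
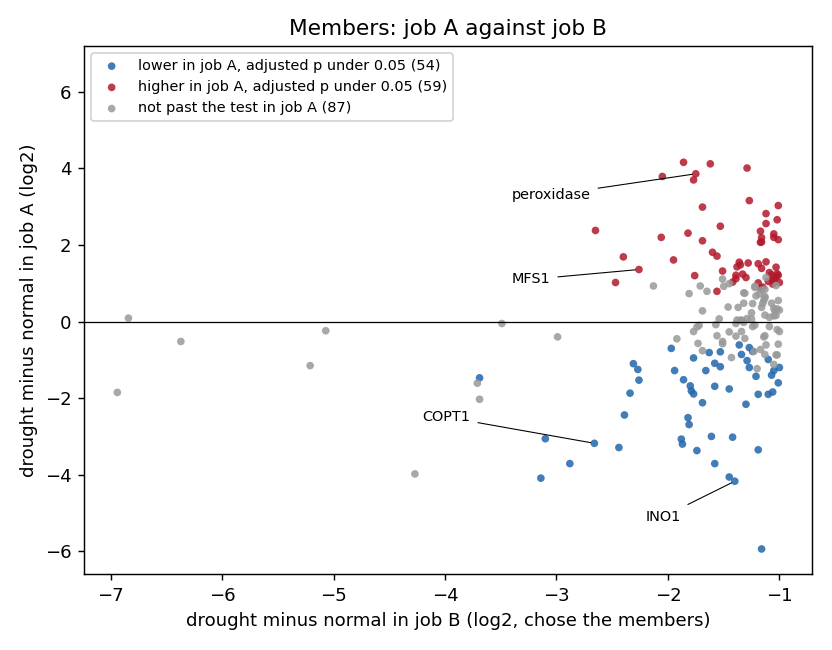
Drought minus normal in job A (vertical, log2 units) against job B (horizontal, log2 units, the values that chose the members), 1 point per member, coloured by the limma call in job A. The 54 members called lower and 59 called higher lie on both sides of 0, and 4 genes described in the text are named.

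Some clock genes set the 3 job A normal arrays apart, while the median level of the members was 9.14 there and 9.16 on the job A drought arrays. CCA1/LHY was at 8.32, 8.18 and 8.63 on the job A drought arrays, against 13.34, 13.02 and 13.79 on the job A normal arrays, and at 8.04, 8.43 and 8.13 on the job B drought arrays, against 8.53, 7.43 and 7.31 on the job B normal arrays. PCL1 was at 14.60, 14.56 and 14.50 on the job A drought arrays, against 6.14, 6.90 and 6.08 on the job A normal arrays, and between 14.38 and 14.99 throughout job B. PRR1 was at 12.12, 12.25 and 12.26 on the job A drought arrays, against 9.36, 9.83 and 9.34 on the job A normal arrays. In job A, CCA1/LHY fell by 5.01 log2 units under drought, and PCL1 and PRR1 rose by 8.18 and 2.70 (limma, adjusted p = 5.67e-06, 5.67e-06 and 7.33e-05). PRR95 and GI differed by 0.01 and 0.31 log2 units in job A and did not pass (limma, adjusted p = 0.968 and 0.0698). None of the 10 clock probe sets is a member. The part of the sampling time in the job A results was not tested, and the labels used here give no hour of harvest.

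The copper transporter gene *COPT1*, which codes for a plasma membrane carrier for copper uptake, fell under drought in job A as well. Its signal was 11.53, 11.43 and 10.87 on the job A drought arrays, against 14.80, 14.70 and 13.87 on the job A normal arrays. *COPT1* fell by 3.18 ± 0.11 log2 units (SE throughout; limma, adjusted p = 1.04e-05). In job B the arrays stood at 9.87, 10.69 and 11.26 under drought, against 13.23, 13.06 and 13.51 under normal growth. Drought and normal arrays did not overlap in either job, nor in either genotype.

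*INO1*, which codes for myo-inositol-3-phosphate synthase, the first enzyme of inositol and phytate synthesis, fell by 4.17 ± 0.36 log2 units in job A (limma, adjusted p = 0.000375). It was at 8.36, 8.44 and 7.52 on the job A drought arrays, against 13.32, 11.75 and 11.77 on the job A normal arrays. In job B it was at 7.94, 6.80 and 8.65 under drought, against 8.88, 9.15 and 9.55 under normal growth. The drought arrays of the jobs overlapped, while every job A normal array lay above every job B normal array. The *VTC2*-like gene (LOC4351698), whose Arabidopsis relative codes for GDP-L-galactose phosphorylase of ascorbate synthesis, had the same form. It was at 11.03, 10.68 and 9.19 on the job A drought arrays, against 13.61, 13.64 and 13.69 on the job A normal arrays, and fell by 3.35 ± 0.33 (limma, adjusted p = 0.000672). In job B it was at 10.38, 9.29 and 9.65 under drought, against 11.15, 10.85 and 10.90 under normal growth. The lowest job A difference of all members, -5.94, was that of LOC4327573, singled out after its values were seen and without a descriptive name in the reference. It was at 9.11, 9.02 and 6.05 on the job A drought arrays, against 13.97, 14.10 and 13.93 on the job A normal arrays.

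*APRL1* (LOC4343348), a gene of the thioredoxin superfamily named for its likeness to adenosine phosphosulfate reductase, is a member by 2 probe sets, which fell by 2.51 ± 0.22 and 2.12 ± 0.22 in job A (limma, adjusted p = 0.000416 and 0.000864). The first was at 11.33, 11.73 and 9.76 under drought in job A, against 13.77, 13.64 and 12.94 under normal growth. In job B it was at 9.91, 10.67 and 8.92 under drought, against 11.67, 11.76 and 11.53 under normal growth. *PIN5A*, which codes for a PIN-type auxin carrier, was at 9.43, 9.33 and 10.30 under drought in job A, against 11.57, 11.49 and 11.65 under normal growth, and fell by 1.89 ± 0.18 (limma, adjusted p = 0.000542). The acyltransferase gene *AT5* fell by 1.87 ± 0.31 in job A (limma, adjusted p = 0.00581), the versicolorin reductase gene (LOC4343598) by 2.16 ± 0.16 (adjusted p = 0.000218) and a nodulin gene by 1.69 ± 0.19 (adjusted p = 0.00132). All 3 had no overlap between drought and normal arrays in either job. The gene described as HY5, a bZIP factor that in Arabidopsis promotes responses to light, was the third from last of the 200 in job B. It was at 10.11, 10.42 and 8.98 under drought in job A, against 11.36, 11.44 and 10.32 under normal growth, and fell by 1.20 ± 0.13 (limma, adjusted p = 0.0011), with the droughted *osnadk1* replicate 2 array just above the normal WT array. Genes described only as expressed proteins, LOC9266816 and LOC4332321, fell by 1.02 ± 0.24 and 0.68 ± 0.18 (limma, adjusted p = 0.0231 and 0.038). The call of LOC9266816 was lost without *osnadk1* replicate 1 of either condition (adjusted p = 0.0706 and 0.0631), and that of LOC4332321 without any 1 of 5 of the 6 arrays (adjusted p = 0.0916 to 0.137).

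The 54 members that fell in job A had a median level of 8.71 on the job A drought arrays, against 11.14 on the job A normal arrays, and of 7.88 on the job B drought arrays, against 9.54 on the job B normal arrays. Their median difference was -1.60 in *osnadk1* and -1.76 in WT of job A, and all 54 had the same sign in both genotypes. The 59 members that rose had a median of 9.53 on the job A drought arrays, against 7.89 on the job A normal arrays, and of 8.42 on the job B drought arrays, against 9.82 on the job B normal arrays. Their median difference in job A was 1.76 in *osnadk1* and 1.32 in WT, again with the same sign in all 59. The calls came from these same job A arrays and so by themselves favour a shared sign. Among the 200 members 153 had the same sign in both genotypes of job A, 80 of them lower and 73 higher, where 67.4% of all probe sets tested had the same sign.

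Of the members with a descriptive name, 7 rose in job A against their direction in job B. *MFS1*, which codes for an AP2/ERF factor of spikelet meristems, was at 12.11, 11.90 and 11.29 on the job A drought arrays, against 10.68, 10.30 and 10.24 on the job A normal arrays. It rose by 1.36 ± 0.16 log2 units (limma, adjusted p = 0.0015). In job B it was at 10.31, 10.45 and 10.28 under drought, against 12.82, 12.33 and 12.66 under normal growth, so the lowest levels were reached under drought in job B and under normal growth in job A. A protein phosphatase 2C gene, of a family that holds negative regulators of abscisic acid signalling, was at 8.63, 9.32 and 7.51 on the job A drought arrays, against 5.72, 5.49 and 4.79 on the job A normal arrays. It rose by 3.16 ± 0.29 (limma, adjusted p = 0.000508), and in job B was at 8.35, 7.48 and 7.47 under drought, against 9.08, 8.91 and 9.09 under normal growth. Its job A normal values lay near the array medians of 5.08 to 5.43, with that of WT below them. The size of the rise is thus not firm, and it was 2.74 with a pseudocount of 16. *DTH8* (also Ghd8), which codes for an NF-YB subunit that delays flowering in long days, was at 8.57, 8.45 and 7.97 under drought in job A, against 7.45, 7.09 and 6.16 under normal growth, and rose by 1.43 ± 0.22 (limma, adjusted p = 0.00442). In job B it was at 8.17, 7.01 and 7.32 under drought, against 8.50, 9.01 and 9.13 under normal growth.

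A cytochrome P450 gene of the CYP711A family (LOC4328761), whose relatives act in strigolactone synthesis, rose by 2.19 ± 0.34 in job A (limma, adjusted p = 0.00447). It was at 11.50, 11.67 and 10.42 under drought in job A, against 8.46, 9.70 and 8.85 under normal growth, and in job B at 11.24, 9.74 and 10.07 under drought, against 11.60, 11.42 and 11.52 under normal growth. The cytokinin-activating enzyme gene *LOGL10* rose by 1.61 ± 0.30 (limma, adjusted p = 0.00909), although its job A arrays overlapped, at 9.44, 10.31 and 8.34 under drought, against 8.52, 7.75 and 6.98 under normal growth. A peroxidase gene (LOC4344277) was at 7.5, 7.73 and 10.48 under drought in job A, against 5.35, 5.34 and 3.43 under normal growth. Its rise of 3.86 ± 0.88 (limma, adjusted p = 0.0211) was uneven, at 2.27 log2 units in *osnadk1* and 7.05 in WT, and was 2.27 without either WT array. All 3 job A normal values lay below their arrays' medians, so the rise has no firm size, and it was 3.19 with a pseudocount of 16. The highest job A difference of all members, 4.16, was that of the member of rank 35 in job B, which maps to no gene in the reference and was singled out after its values were seen.

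**Figure D3:**
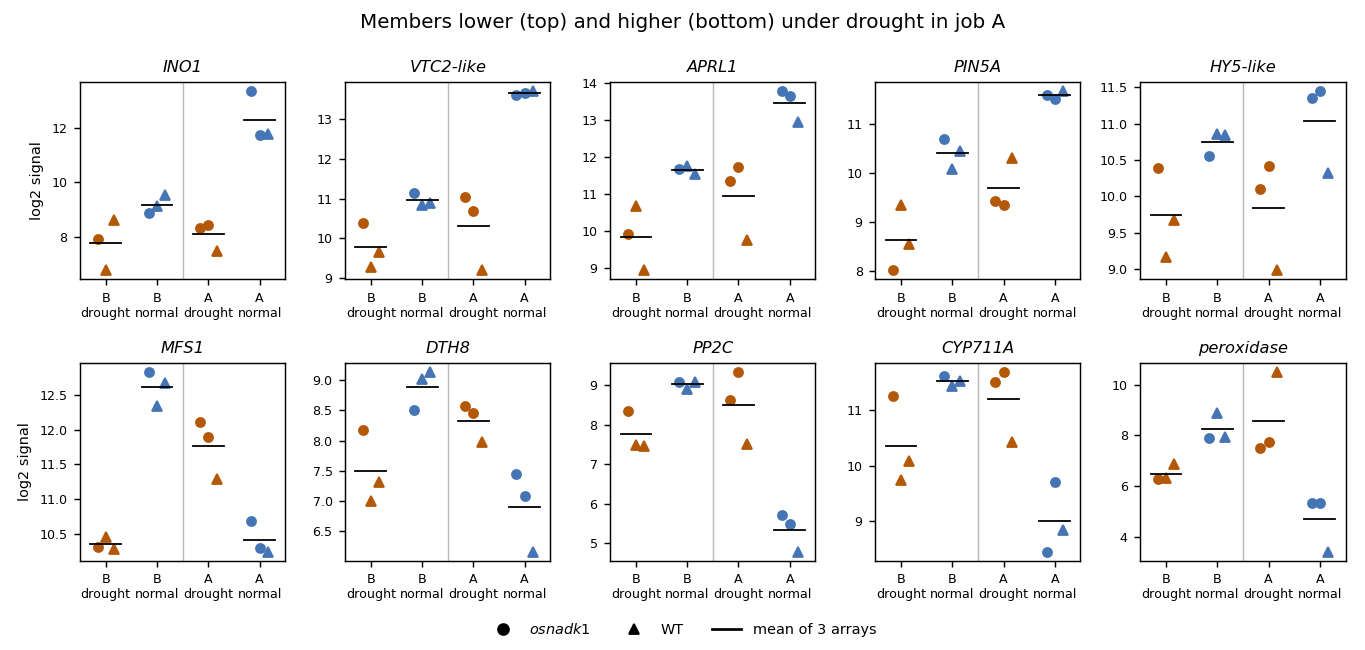
Log2 signal (vertical, scale differs by panel) of 10 members on the 12 arrays by job and condition, with circles for *osnadk1*, triangles for WT and a line at the mean of 3 arrays. The upper 5 fell under drought in job A and the lower 5 rose there, and in each lower panel the job A normal arrays lie under the job B normal arrays.

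Carriers and enzymes for mineral nutrients made up 9 of the members. The list of these genes was drawn up after the members had been seen, so its counts describe and support nothing. They came from 8 genes, out of 118 probe sets and 95 genes, and of its 89 probe sets tested 14 fell and 13 rose in job A by limma, with a median difference of 0.14. In job B 57 of the 89 were lower under drought by mean, where 51.9% of all probe sets tested were. Besides *COPT1*, *ZIP2* (LOC4333098) and *LPR2* fell in job A. *ZIP2*, of a family of zinc and iron carriers, was at 8.17, 8.55 and 7.32 under drought in job A, against 9.62, 9.27 and 8.43 under normal growth, and fell by 1.09 ± 0.18 (limma, adjusted p = 0.00588), with droughted *osnadk1* replicate 2 above normal WT. *LPR2*, a rice relative of the Arabidopsis multicopper oxidase gene LPR of phosphate sensing in roots, was at 10.01, 10.65 and 9.20, against 11.86, 11.98 and 11.31, and fell by 1.76 ± 0.20 (limma, adjusted p = 0.0012). In job B the drought values were 7.31, 7.15 and 7.33 for *ZIP2*, against 8.66, 8.56 and 9.30 under normal growth, and 9.67, 9.57 and 9.10 for *LPR2*, against 10.96, 10.92 and 10.81.

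Several carriers had overlapping arrays in job A. *NAAT1*, which codes for nicotianamine aminotransferase of the synthesis of the iron chelator deoxymugineic acid, was at 11.24, 12.26 and 12.38 on the job B drought arrays, against 14.00, 13.42 and 13.64 on the job B normal arrays. In job A it was at 13.54, 13.97 and 11.77 under drought, against 14.54, 13.31 and 13.15 under normal growth, a difference of -0.57 ± 0.37 (limma, adjusted p = 0.317). The zinc transporter genes LOC4338051 (*ZIP3* or *ZIP7* in the reference) and *ZIP4* differed by -0.08 ± 0.25 and 0.03 ± 0.49 in job A (limma, adjusted p = 0.865 and 0.975). *YSL16*, whose product carries copper bound to nicotianamine, differed by -0.87 ± 0.34 (adjusted p = 0.121). The potassium transporter gene *HAK1*, a member by 2 probe sets, differed by -0.78 ± 0.36 and -1.12 ± 0.53 (limma, adjusted p = 0.175 and 0.184). By both *HAK1* probe sets the job A difference was -0.17 in *osnadk1*, and by WT replicate 1 it was -2.02 and -3.0. Their relatives *ZIP1* (LOC4326394), *COPT2* and *YSL8* had job B differences of -3.01, -2.34 and -1.83 but normal means under the level the rule asked for, at 7.24, 7.54 and 5.86. Of these *YSL8* fell by 2.15 in job A (limma, adjusted p = 0.00287), and the values of *ZIP1* and *COPT2*, -2.23 and -2.29, did not pass (adjusted p = 0.209 and 0.142). These relatives were picked after their values were seen. In job B *YSL8* was at 5.46, 1.31 and 5.32 under drought, against 5.49, 5.89 and 6.20 under normal growth. *ZIP1* was at 2.06 on the same droughted WT replicate 2 array, so neither job B difference has a firm size. Other genes of the list rose in job B, among them *Lsi1* by 1.09 and *Nramp1* by 1.01.

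Ammonium transporter genes of the AMT3 family had differences of opposite sign in job A. *AMT3;2* fell by 1.18 ± 0.14 (limma, adjusted p = 0.00141), with 9.97, 9.73 and 9.94 under drought, against 10.87, 10.92 and 11.39 under normal growth. *AMT3;3* rose by 1.55 ± 0.39 (limma, adjusted p = 0.0316), with 11.35, 11.81 and 10.69 under drought, against 9.09, 9.68 and 10.43 under normal growth. The call of *AMT3;3* was lost without any 1 of the 4 *osnadk1* arrays of job A (limma, adjusted p = 0.0909 to 0.113) and with no variance trend (adjusted p = 0.109). In job B *AMT3;2* was at 7.99, 9.31 and 8.53 under drought, against 9.72, 10.20 and 10.48, and *AMT3;3* at 9.32, 10.01 and 9.71, against 11.31, 10.48 and 11.34. They were the only members among 20 probe sets for nitrate, nitrite and ammonium uptake and assimilation, of which 18 were tested and 7 fell and 2 rose in job A.

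**Figure D4:**
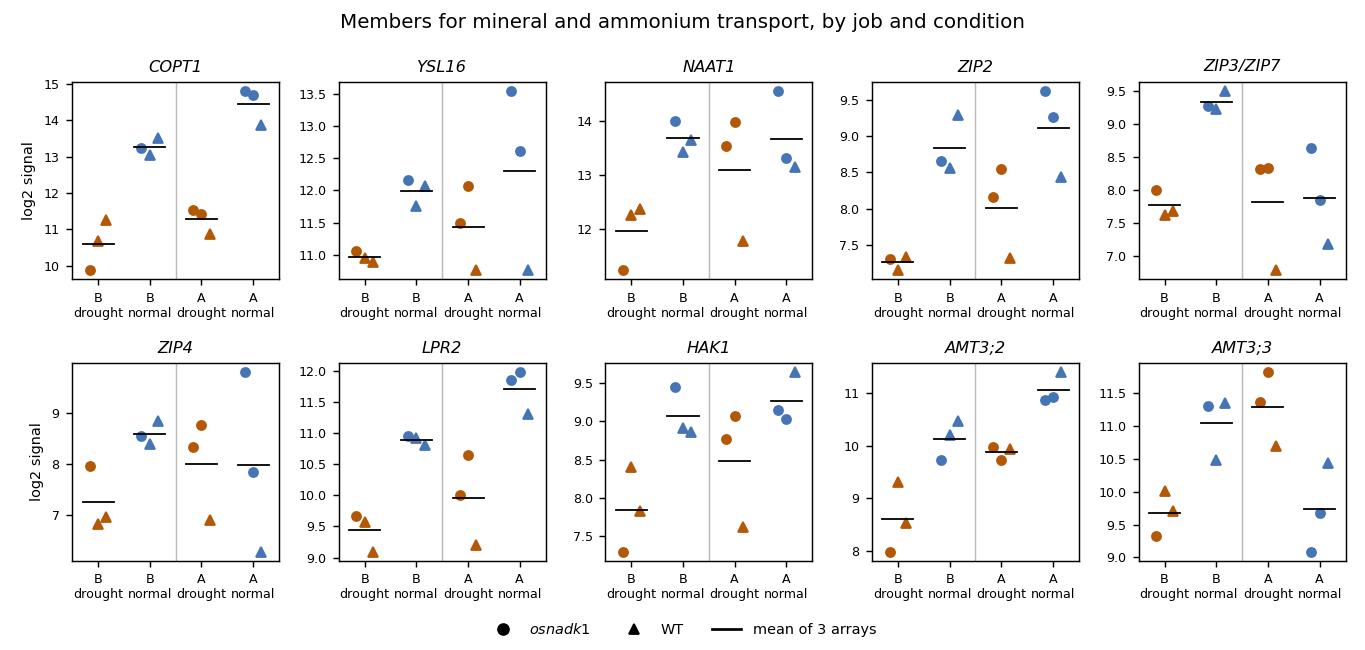
Log2 signal (vertical, scale differs by panel) of 10 members for mineral and ammonium transport on the 12 arrays by job and condition, with circles for *osnadk1*, triangles for WT and a line at the mean of 3 arrays. *COPT1*, *ZIP2*, *LPR2* and *AMT3;2* fell in job A, *AMT3;3* rose, and the arrays of the other 5 overlapped between drought and normal growth there.

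Other gene lists held few members or none. The lists were matched by gene symbol, which only 26 of the 200 members had, so most members could not match any list. Some lists were also short, with 7 probe sets for WRKY factors and 2 for gibberellin oxidases. A list with 0 members thus does not show that its function was absent among the members. The lists of AP2/ERF factors (14 probe sets), jasmonate synthesis (22), sugar transport and sucrose metabolism (42), auxin (74), cytokinin and ethylene (49) and pathogenesis-related proteins and peroxidases (22) held 1 member each, in that order *MFS1*, *LOX2.1*, *MST3*, *PIN5A*, *LOGL10* and the peroxidase gene. The jasmonate list had 2 probe sets that fell and 1 that rose in job A out of 15 tested, the sugar list 6 and 4 out of 31, the auxin list 4 and 8 out of 51 and the cytokinin and ethylene list 10 and 6 out of 41. The AP2/ERF list had 0 and 1 out of 9 and the pathogenesis-related list 2 and 5 out of 17. The lipoxygenase gene *LOX2.1* was at 10.14, 10.95 and 6.48 under drought in job A, against 9.90, 8.78 and 8.98 under normal growth, and the monosaccharide transporter gene *MST3* at 12.57, 13.02 and 12.33, against 12.07, 12.10 and 13.26. Neither passed (limma, adjusted p = 0.986 and 0.758). Photosystem, Rubisco and Calvin cycle, chlorophyll, WRKY, MYB, NAC, zinc finger, calcium sensor, kinase, ubiquitin ligase, diterpenoid, phenylpropanoid, cell wall, wax, gibberellin, glutathione transferase, tubulin and histone, ribosomal, heat shock and LEA lists held 0 members. Of these lists the photosystem genes had 3 probe sets that fell in job A and 0 that rose out of 6 tested, and the Rubisco and Calvin cycle genes 6 and 0 out of 13. Other lists were as uneven, with 13 and 2 out of 75 for zinc fingers and 8 and 1 out of 23 for phenylpropanoid genes. Tubulins and histones went the other way, with 0 and 9 out of 22.

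The remaining named members did not pass in job A. The phytosulfokine precursor gene *PSK4* differed by 0.15 ± 0.21, the strigolactone repressor relative *D53-L* by -0.26 ± 0.24 and *bZIP52*, a bZIP factor gene, by -0.87 ± 0.36 (limma, adjusted p = 0.673, 0.478 and 0.131). A ubiquitin gene (LOC4347411) differed by 0.79 ± 0.40, *cap2* by 0.28 ± 0.54 and the expressed protein LOC4349807 by -0.27 ± 0.21 (limma, adjusted p = 0.213, 0.76 and 0.414). The metal ion binding protein gene LOC4324699 differed by 1.11 ± 0.35 (limma, adjusted p = 0.067), by 1.63 in *osnadk1* and 0.07 in WT. In *bZIP52* the difference was -0.32 in *osnadk1* and -1.99 in WT of job A, and in *D53-L* it was 0.07 and -0.93.

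The 1 droughted WT array of job A did not lie in the same place as the 2 droughted *osnadk1* arrays. On the WT replicate 1 drought array 129 of the 200 members lay below the midpoint between their job B drought and normal means, against 49 and 42 members on the *osnadk1* replicate 1 and 2 drought arrays. On the job A normal arrays the counts were 96 and 91 for *osnadk1* and 98 for WT, so the arrays were closer there. Among the 87 members not called in job A, 56 lay below the midpoint on the WT drought array, against 16 and 12 on the *osnadk1* drought arrays. The midpoints come from the values that chose the members, and such counts were not made over all probe sets tested, so they only describe these arrays. As a whole 172 of the 200 members were higher in droughted *osnadk1* than in droughted WT of job A, with a median difference of 0.76 log2 units, where 51.5% of all probe sets tested were higher and the median was 0.01. In job B 94 of 200 were higher in droughted *osnadk1*, with a median of -0.05, where 50.1% of all were. Under normal growth 119 were higher in *osnadk1* of job A, with a median of 0.29, where 51.3% of all were and the median was 0.02, and 98 in job B, with a median of -0.02, where 49.6% of all were. WT of job A and *osnadk1* of job B each have 1 array a condition, so these values have no replicate check within a job.

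**Figure D5:**
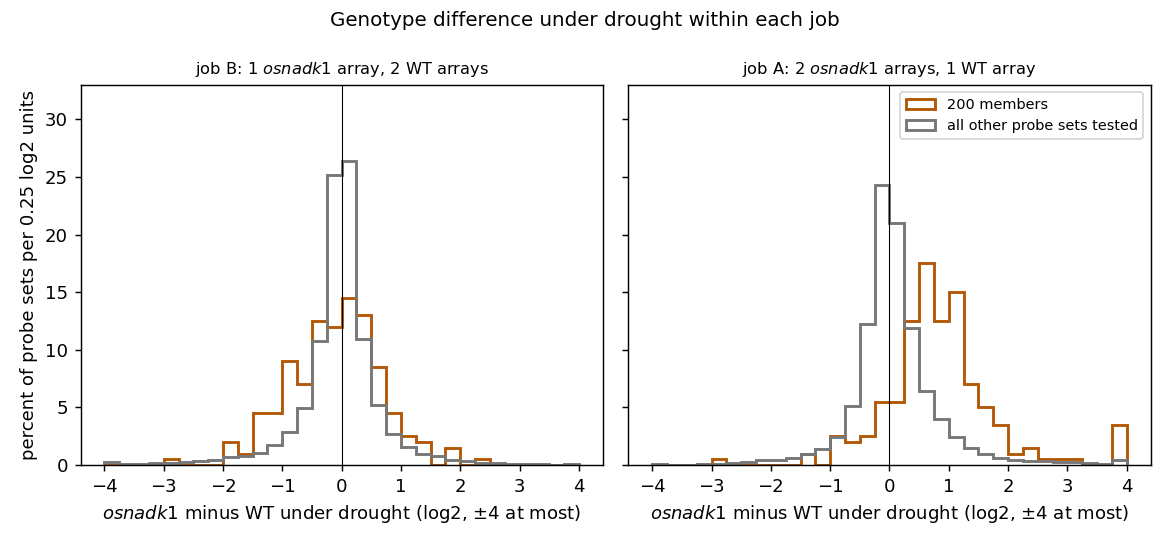
Difference between *osnadk1* and WT under drought within job B (left) and job A (right), in log2 units (horizontal), as the percent of probe sets per bin of 0.25 units (vertical), with members in orange and all other probe sets tested in grey. In job B the members centre near 0 (median -0.05), and in job A they lie to the right of the others (median 0.76), where WT is 1 array.

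The genotypes were tested in 4 groups over all 12 arrays. Job B holds 2 of the 3 WT arrays of each condition but 1 of the 3 *osnadk1* arrays, so the choice of members by job B touches this fit. By itself the choice favours higher *osnadk1* values under drought and lower ones under normal growth, so the counts of this fit are no independent result. A fit with job by treatment as a block, which compares genotypes within a job, is given beside it. By limma no member passed an adjusted p of 0.05 between *osnadk1* and WT under drought, where 0.0405% of all probe sets tested were called higher and 0.0156% lower. At an unadjusted p under 0.05, 30 members were higher in *osnadk1* under drought and 0 lower, against 3.04% and 2.22% of all. With the block 46 members were higher and 8 lower at that level, against 5.19% and 3.87% of all, and 26 members were among the higher in both fits. By mean 172 of the 200 members were higher in droughted *osnadk1* of job A, where WT is 1 array, against 94 in job B. The members share these arrays and are not replicates of each other. With the block 2 members rose at an adjusted p under 0.05 and 0 fell, against 0.0561% and 0.0374% of all. They were the metal ion binding protein gene LOC4324699 and the *VTC2*-like gene.

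LOC4324699 was at 8.32 and 7.92 on the *osnadk1* drought arrays of job A, against 6.67 in WT, and at 8.59 on that of job B, against 7.09 and 7.22 in WT. Under normal growth it was at 6.51 and 6.46 in *osnadk1* of job A, against 6.59 in WT, and at 9.15 in job B, against 9.14 and 9.13. Under drought the genotypes lay 1.45 apart on the job A arrays and 1.43 on those of job B, or 1.44 ± 0.18 with the block (limma, adjusted p = 0.0206) and 1.28 ± 0.78 without it (adjusted p = 0.999). The *VTC2*-like gene was higher in droughted *osnadk1* by 1.66 in job A and 0.91 in job B, or 1.29 ± 0.18 with the block (limma, adjusted p = 0.0415) and 1.32 ± 0.78 without it (adjusted p = 0.999). The lowest p without the block was that of the expressed protein LOC4332321, higher in droughted *osnadk1* by 1.02 ± 0.17 (limma, adjusted p = 0.143), by 1.03 within job A and 0.84 within job B.

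Under normal growth 0 members passed an adjusted p of 0.05 in limma, where 0.0593% of all probe sets tested were called higher in *osnadk1* and 0.0811% lower. At an unadjusted p under 0.05, 8 members were higher and 3 lower, together 11 of 200, where 6.02% of all passed. With the block 15 members were higher and 5 lower at that level, against 4.89% and 4.16% of all. At an adjusted p under 0.05 with the block 1 member rose, against 0.109% of all called higher and 0.2% lower. It was the member of rank 40 in job B, which maps to no gene in the reference, and it rose by 1.69 ± 0.16 (limma, adjusted p = 0.0028). It was at 11.91 and 12.09 in normal *osnadk1* of job A, against 10.04 in WT, and at 9.97 in job B, against 8.67 and 8.40, so the genotypes were in the same order in both jobs. For a difference in drought response between the genotypes 0 members passed an adjusted p of 0.05, as did 0% of all probe sets tested. At an unadjusted p under 0.05, 6 members had a more positive response in *osnadk1* and 1 a more negative, where 3.95% of all passed in either direction. The rule sets low drought and high normal values on the job B arrays, to which WT gave more arrays than *osnadk1*, and so by itself favours a more positive response in *osnadk1* without the block. With the block 14 members had a more positive response and 4 a more negative, against 3.56% and 3.47% of all. Without the block *bZIP52* had the lowest p of the members, 0.0106, with a difference in response of 1.11 ± 0.36 (limma, adjusted p = 0.975). The median difference in response was 0.82 over the members without the block and 0.27 with it, against 0.05 and 0.01 over all probe sets tested.

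Of the 200 members 69 map to no gene in the reference, or 34.5%, against 41.8% of the probe sets tested and 26.9% of those that met the rule before the 200 lowest were taken. For 10 genes 2 probe sets are members, and in all 10 these had the same call in job A. LOC4346529, LOC4348971 and LOC107276775 are such genes, each with 2 probe sets that rose in job A (by 2.49 and 2.82, by 2.36 and 3.70, and by 1.15 and 1.48), and LOC4331629, LOC4346800, LOC4345410 and LOC4326757 each had 2 that fell. In the gene order of the reference, 7 pairs of member genes lay within 10 genes of each other, and 5 of the pairs had the same sign in job A. Of these LOC4342287, LOC4342289 and LOC4342290 on chromosome 7 lay within 4 genes and had job A differences of 1.07, 0.72 and 1.22.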

How the data were processed

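The deposited log2 values are MAS5 signals that the authors made (version not given in the sources used here). On each of the 12 arrays the 2% trimmed mean of the linear values was 500.07 to 500.08, so the arrays had been scaled to a common target, and nothing further was normalized. All columns were mapped to a sample. After 187 control probe sets were left out, 57194 remained, and the 32064 that were at or above the median of their array on 3 arrays or more were tested. The number of arrays limits the precision. Linear models were fitted in limma 3.58.1 (R 4.3.3) with the trend option and p-values adjusted by Benjamini-Hochberg over all probe sets tested, drought against normal on the 6 job A arrays with genotype as covariate, and genotype and interaction contrasts on 12 arrays in 4 groups, with a job by treatment block as an alternative. The fit was tested on simulated data. An exact test of 3 against 3 cannot go below 0.1.

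Members and lists were chosen with earlier results of these data known, and the mineral list after the members were seen. After values were seen, 10 genes that matched a list only through a synonym shared with another family were left out of it. Gene names came from the array annotation and RefSeq. For 13 members descriptions came from the study's lists of genes that differed between *osnadk1* and WT. Those 13 had thus already been called between the genotypes in the study. The named genes are the members with a descriptive name, the 5 lowest, and those past a test. Arrays were not treated as paired by replicate number, and whether the same number marks a shared pot is not given. Other alternatives were quantile normalization, median centring, a floor at percentile 25, a pseudocount of 16, other filters, no variance trend, the methods' t-test, other samples or blocks, each array left out and, added after seeing the data, the job A normal arrays left out. Promoter sequences were not analysed here.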

Additional observations from a re-analysis of the deposited data

Results flagged for a closer look

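In 57 members every job A drought array lay above every job A normal array, while the rule put every job B drought array below every job B normal array. They were 28.5% of the members, where 23.3% of all probe sets tested lay so in job A, so the share was near that of all. The difference between the jobs was not tested, because the rule used the job B arrays. Those with a descriptive name had these job A differences in log2 units. *MFS1* was at 1.36, the peroxidase gene LOC4344277 at 3.86, *DTH8* at 1.43, *AMT3;3* at 1.55, the protein phosphatase 2C gene at 3.16 and the CYP711A gene LOC4328761 at 2.19. The metal ion binding protein gene LOC4324699 was at 1.11 and did not pass (limma, adjusted p = 0.067). CCA1/LHY, PRR1 and PCL1 set the job A normal arrays apart, and their part in these differences was not tested.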

How the results depend on the processing

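Under the other settings the choice of members kept 144 to 194 of the 200 members, or all 200 with a floor at percentile 25, except that leaving out a job B replicate kept 83 to 157. The 113 members called in job A (54 lower, 59 higher) became 33 (15 and 18) with the methods' t-test after Benjamini-Hochberg and 75 (32 lower) with that test at 2-fold and an unadjusted p of 0.05, and 77 (37 and 40) with no variance trend, while all probe sets called were 21.0%, 9.79%, 12.3% and 13.9% in these 4 fits. Leaving out 1 array gave 77 to 133 in all, 37 to 54 lower and 40 to 79 higher, lowest without droughted *osnadk1* replicate 1. With the replicate block 108 were called. Of 22 called probe sets followed through 19 settings 0 changed sign. The 22 were followed because they had passed, and settings that alter only the test or the filter leave the difference itself the same. The call of the expressed protein LOC4332321 ended in 12 of 19 settings and those of *AMT3;3* and LOC9266816 in 6 of 19. With the methods' t-test after Benjamini-Hochberg only *COPT1*, *INO1*, the *VTC2*-like gene, *PIN5A* and *AMT3;2* kept their calls. The others of the 22 lost theirs (methods' t-test, adjusted p = 0.0565 to 0.382). Between genotypes, leaving out 1 array gave 0 to 3 members under normal growth, 0 to 1 under drought and 0 to 0 for the interaction. The 3 were the versicolorin reductase gene, LOC9269452 and LOC4331496, and the 1 was the versicolorin reductase gene, all without normal *osnadk1* replicate 3, where 1.29% of all probe sets passed under normal growth and 0.0593% under drought. A block for job gave 1 member under normal growth (rank 40 in job B), with job by treatment as a block 1 under normal growth and 2 under drought, and without the job A normal arrays 1 under drought (the CYP711A gene). The methods' t-test at 2-fold and an unadjusted p of 0.05 gave 1 member under normal growth (LOC9266816), 16 under drought and 3 for the interaction (*bZIP52*, LOC4331629 and the nodulin gene), against 1.42%, 1.57% and 1.88% of all probe sets, and the replicate block gave 0 for each. Same-numbered arrays correlated at -0.266 to 0.32 in their deviations from the group means. The lowest value was between the normal arrays of replicate 2, which the jobs split by genotype. The highest was between those of replicate 3, which share job B. These correlations thus also hold the job and cannot decide whether the arrays were paired. Job A alone and job B alone gave values without a test, as 1 genotype then has 1 array a condition.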
